A study of Sus scrofa with 6 samples.

Results

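miR-1, miR-206 and miR-133 are the microRNAs (miRNAs) best known from skeletal and heart muscle, and their entries were followed here through small RNA libraries of pig milk exosomes and pig milk. The entries were chosen by name from the table that carries the sample titles. All 5 mature names sought were found (miR-1, miR-206, miR-133a-3p, miR-133b and miR-133a-5p), each as 1 entry of the 245 in the table. The libraries come from Rongchang pigs and fall into 3 milk exosome samples and 3 milk samples. Exosomes are vesicles bounded by a membrane, shed by cells and loaded with RNA among other cargo. No genotype, treatment, age of the animals or day of lactation is given in the labels, and they do not say whether a milk exosome and a milk sample of the same number share an animal. The design text also names piglet small intestine, which no sample label does.

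A miRNA is a short RNA that pairs with messenger RNAs, mainly through its seed (bases 2 to 8), and represses them. miR-1 and miR-206 are close relatives with a common seed: miR-1 is abundant in heart and skeletal muscle, and miR-206 in skeletal muscle. miR-133a and miR-133b form a second family, and in mammals genes of the families lie side by side and are transcribed together. The order of genes in the RefSeq annotation of the pig assembly Sscrofa11.1 has MIR1 next to MIR133A-1 and MIR206 next to MIR133B, each pair with 0 genes between them. A further copy, MIR133A-2, lies on another chromosome than MIR1, and the mature miR-133a of the copies cannot be told apart here.

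The sequences are shown because they define which reads can be told apart. They are given 5′ to 3′ as deposited, with T for U and the seed in capitals.
miR-1: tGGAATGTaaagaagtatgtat
miR-206: tGGAATGTaaggaagtgtgtga
miR-133a-3p: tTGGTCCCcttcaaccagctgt
miR-133b: tTTGGTCCccttcaaccagcta
miR-133a-5p: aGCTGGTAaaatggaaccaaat
miR-1 and miR-206 held the seed GGAATGT, which no other of the 238 distinct sequences had at bases 2 to 8. Counted from 1 at the 5′ end of miR-1, they differed at 4 of 22 positions, A11G, A17G, A21G and T22A, with the base of miR-1 first. The entry listed as miR-133a-3p starts 1 base further 3′ than miR-133b, so its bases 2 to 8 read TGGTCCC and those of miR-133b TTGGTCC. Over the 21 bases that align, the difference was A22G, counted in miR-133b. Both share the 20-base run TTGGTCCCCTTCAACCAGCT, so the assignment of single reads between miR-133a-3p and miR-133b is uncertain. All 5 sequences were 22 bases long, which is also the median of the table. Their GC content ran from 27.3% in miR-1 to 54.5% in miR-133a-3p, against a median of 50% over all sequences.

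The values are normalized abundances deposited by the authors. Depth was estimated by taking the most frequent value above 0 in a library as 1 read. By this measure milk exosome 3 and milk 1 held 8020867 and 9124580 reads on the listed sequences, and the other 4 libraries held 1901 to 9313. These deep libraries, 1 in each group, also stood apart in content: 5 erythroid miRNAs, known from red blood cells, held 89.9% of the listed signal of milk exosome 3 and 90.5% of that of milk 1, against 2.92% to 12.5% of the shallow libraries. Without the erythroid list the total of the deposited values was 74615 to 80245 in the milk exosome libraries and 23512 to 66084 in the milk libraries. Any comparison of the groups below therefore mixes deep and shallow libraries, and those of the members are also given within a depth class. Across the 141 entries tested below, the log2 values of milk exosome 3 and milk 1 correlated at 0.993 (Pearson), against at most 0.479 between either of them and a library of its own group. The group labels of these 2 libraries therefore carry a doubt that extends to every milk exosome minus milk value here that uses either of them. A label error cannot be told apart from their shared depth and erythroid content. The labels do not tie a milk or milk exosome number to a separate extraction, so p-values measure the spread between these samples only.

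The muscle miRNAs were abundant in 3 libraries, 2 of milk exosomes and 1 of milk, and scarce in the other 3. Together the 5 entries held 55.1% of the listed signal of milk exosome 2 (95% exact Clopper-Pearson interval 53.5% to 56.7%). They held 7.71% (7.18% to 8.27%) of milk exosome 1 and 0.000785% (0.000604% to 0.00100%) of milk exosome 3. In milk the share was 6.58e-05% (2.41e-05% to 0.000143%) in milk 1, 10.5% (9.61% to 11.5%) in milk 2 and 0.289% (0.116% to 0.686%) in milk 3. These intervals rest on estimated reads and cover counting error only. With the erythroid list taken out of the denominator, the share was 0.00781% in milk exosome 3 and 0.000689% in milk 1, so these libraries stayed lowest. Material from more cells of a type and more RNA per cell cannot be told apart in such bulk libraries.

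**Figure D1:**
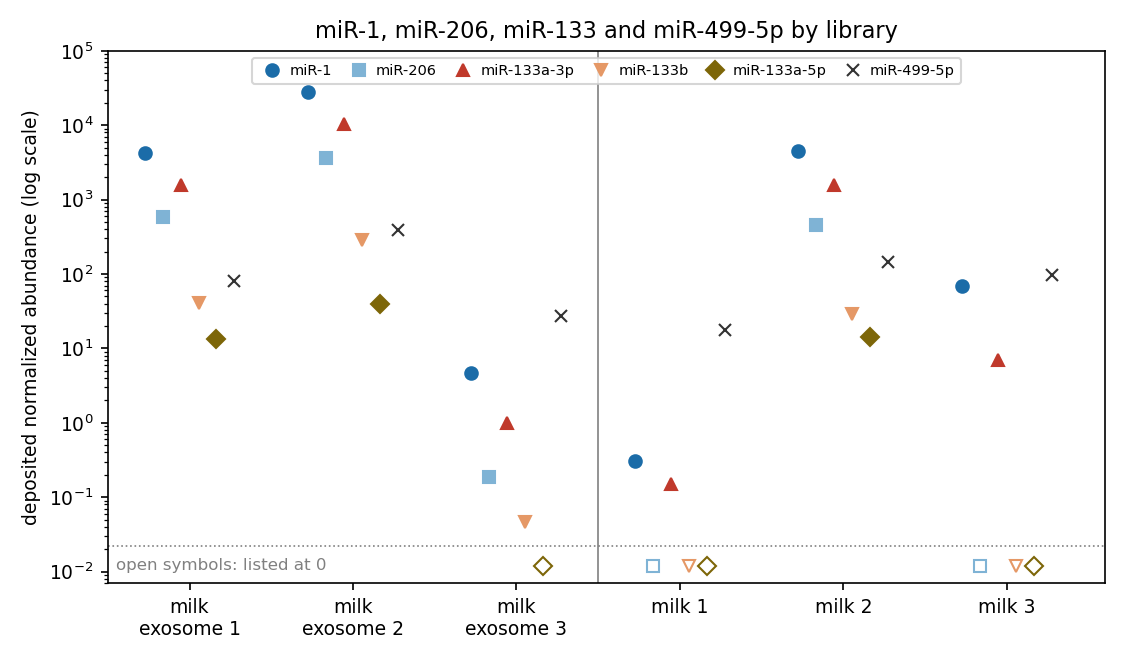
Deposited normalized abundance (log scale) of the 5 muscle entries and of miR-499-5p in each of the 6 libraries, 1 point per entry and library, with open symbols at the bottom for values listed at 0. The muscle entries are high in milk exosome 1, milk exosome 2 and milk 2, where miR-1 lies between 4242 and 27992, and low in the other 3 libraries.

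miR-1, which promotes the differentiation of muscle precursor cells in mouse, had values of 4242, 27992 and 4.68 in milk exosome 1, 2 and 3, against 0.304, 4488 and 69.2 in milk 1, 2 and 3. It was the most abundant sequence of milk exosome 2, with 36.4% of its listed signal, and held 5.06% of milk exosome 1 (rank 5) and 7.20% of milk 2 (rank 2). In milk exosome 3 and milk 1 it stood on 50 and 4 estimated reads. The order of the libraries by value was milk exosome 2, milk 2, milk exosome 1, milk 3, milk exosome 3 and milk 1. As shares, milk exosome 1 (4.62% to 5.52%) and milk 2 (6.45% to 8.01%) had intervals that did not meet, while their deposited values were 4242 and 4488. The range of miR-1 in milk exosome libraries thus overlapped that in milk libraries.

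miR-206, which promotes myoblast differentiation in mouse, had values of 576, 3578 and 0.187 in milk exosome 1, 2 and 3. In milk it was listed at 0 in milk 1, at 459 in milk 2 and at 0 in milk 3. It had rank 4 in milk exosome 2, where it held 4.65% of the listed signal. The zeros differ in the limit they set. In milk 3, 3 reads would be a share of 0.158%, so the 0.736% that miR-206 had in milk 2 lies above this limit. In milk 1, 3 reads would be a share of 3.29e-05%.

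miR-133a-3p, the main arm of a hairpin whose product promotes myoblast proliferation in mouse, had values of 1594, 10438 and 0.984 in milk exosome 1, 2 and 3, against 0.152, 1556 and 6.92 in milk 1, 2 and 3. It held 13.6% of milk exosome 2 (rank 2) and 2.50% of milk 2 (rank 10). The value in milk 3 is worth 0.5 reads, so nothing can be read from it. miR-133b, its relative next to miR-206, was far lower, at 40.5, 285 and 0.0468 in milk exosome 1, 2 and 3, and at 28.7 in milk 2. It was listed at 0 in milk 1 and milk 3. miR-133a-5p, the opposite arm of miR-133a, was at 13.5 and 39.3 in milk exosome 1 and 2 and at 14.3 in milk 2, which is 1.5, 2 and 1 estimated reads, and it was listed at 0 in the other 3 libraries. The 3p arm was thus highest in milk exosome 2, while 1 to 2 reads do not rank the libraries by the 5p arm. In the 3 libraries where both arms were listed the 3p arm was far above the 5p arm. It was 118 times (24.1 to 736) the 5p arm in milk exosome 1, 266 times (73.1 to 2198) in milk exosome 2 and 109 times (19.2 to 4344) in milk 2.

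In milk exosome 1, 2 and 3 and in milk 2 the members stood in the same order, miR-1, miR-133a-3p, miR-206, miR-133b and miR-133a-5p. The last places of this order rest on few reads. In milk exosome 3, miR-206, miR-133b and miR-133a-5p stood on 2, 0.5 and 0 estimated reads. In milk 2, miR-133b and miR-133a-5p stood on 2 and 1. miR-1 was 2.66 times miR-133a-3p in milk exosome 1 (interval 2.23 to 3.18), 2.68 times in milk exosome 2 (2.43 to 2.97) and 4.76 times in milk exosome 3 (2.34 to 9.68). The ratio was 2 in milk 1 (0.287 to 22.1), 2.88 in milk 2 (2.30 to 3.60) and 10 in milk 3 (0.559 to 236). All 6 intervals share the values from 2.43 to 2.97, so at this depth no library differed detectably from the others in this ratio. The mean log2 ratio was 1.70 ± 0.48 in milk exosome libraries and 1.95 ± 1.22 in milk libraries (SD, n = 3 each), a difference of -0.25 that did not exceed the spread (two-sided exact permutation test, p = 0.80, where the smallest possible is 0.1). Without milk 3, whose ratio rests on 0.5 reads of miR-133a-3p, the difference was 0.43. Among the 4 shallow libraries it was -1.01 (n = 2 each, exact permutation p = 0.333, the smallest that 2 against 2 allow), and between the deep libraries the log2 ratio was 2.25 in milk exosome 3 and 1.00 in milk 1.

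miR-1 was 7.36 times miR-206 in milk exosome 1 (5.66 to 9.71), 7.82 times in milk exosome 2 (6.70 to 9.18), 25 times in milk exosome 3 (6.57 to 212) and 9.78 times in milk 2 (6.79 to 14.5). miR-206 was 14.2 times (5.21 to 40.8) its neighbour miR-133b in milk exosome 1, 12.6 times (7.16 to 22.1) in milk exosome 2 and 16 times (4.08 to 138) in milk 2. The intervals overlapped for both ratios. Of the summed value of the 5 entries, miR-1 made up 65.6% in milk exosome 1, 66.1% in milk exosome 2 and 68.6% in milk 2. miR-133a-3p made up 24.7% in both these milk exosome libraries and 23.8% in milk 2. In the libraries with few muscle reads the part of miR-1 was 79.4% in milk exosome 3, on 63 estimated reads of all 5 entries, 66.7% in milk 1, on 6, and 90.9% in milk 3, on 5.5.

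**Figure D2:**
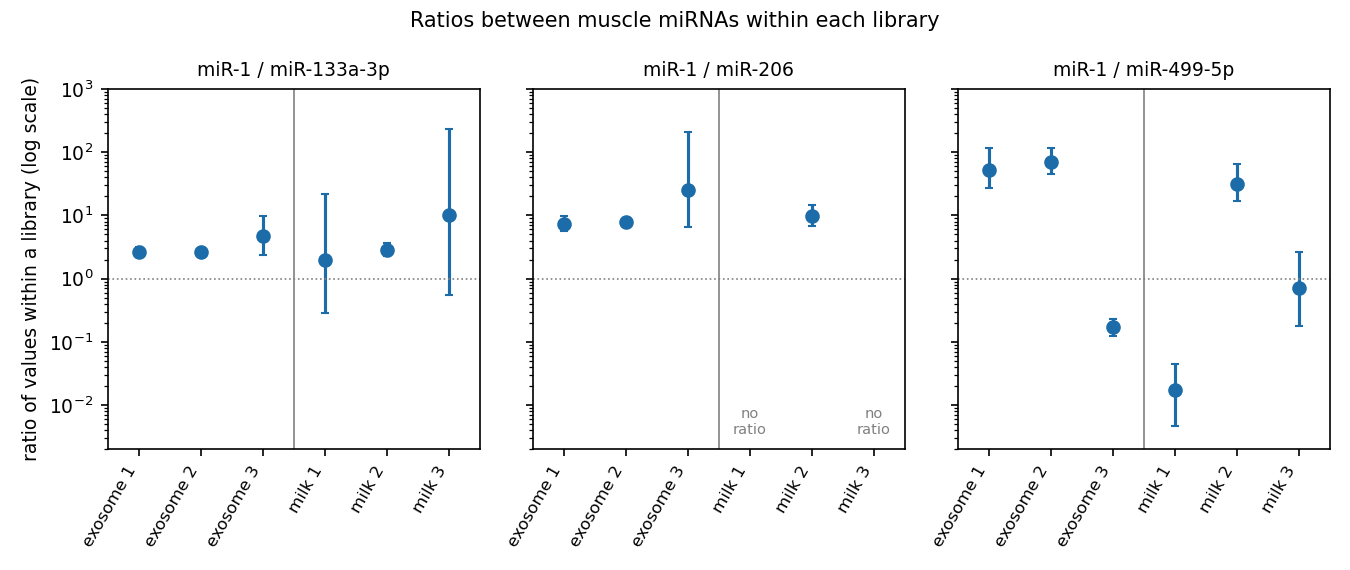
Ratio of miR-1 to miR-133a-3p, miR-206 and miR-499-5p within each library (log scale), with 95% intervals from estimated reads as bars and "no ratio" where miR-206 was listed at 0. The ratio to miR-133a-3p lies between 2 and 10 in all 6 libraries, while that to miR-499-5p runs from 0.0172 in milk 1 to 71.2 in milk exosome 2.

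miR-499-5p varied less between libraries than the members did. miR-499-5p and miR-208b lie within myosin heavy chain genes and are known from heart and slow skeletal muscle. miR-499-5p had values of 81.1, 393 and 27.3 in milk exosome 1, 2 and 3, against 17.6, 143 and 96.8 in milk 1, 2 and 3. miR-1 was 52.3 times (27.3 to 115) miR-499-5p in milk exosome 1, 71.2 times (45.9 to 117) in milk exosome 2 and 31.3 times (16.8 to 65.9) in milk 2. In milk exosome 3 and milk 1 it was 0.172 (0.125 to 0.233) and 0.0172 (0.00466 to 0.0447) times miR-499-5p, which there stood on 291 and 232 estimated reads. In milk 3 the ratio was 0.714 (0.179 to 2.61). miR-499-5p thus exceeded miR-1 in both deep libraries. miR-208b was at 9.01, 39.3 and 0.0937 in milk exosome 1, 2 and 3, which is 1, 2 and 1 estimated reads, and its value was 0 in all 3 milk libraries.

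Between the groups, no muscle miRNA passed the test. All 5 reached a value of 10 in at least 3 libraries, the condition for testing, and all but miR-1 did so through exactly milk exosome 1, milk exosome 2 and milk 2. In a limma fit of log2(value + 1) over the 141 entries tested, 0 of the 5 members were called in either direction at an adjusted p of 0.05, against a background of 0% of all entries called higher and 0% called lower, and 0 entries had an unadjusted p under 0.05. miR-206 had a log2 fold change (milk exosome minus milk) of 4.13 (SE 3.59, 95% interval -4.20 to 12.5, limma adjusted p = 0.997). miR-1 had one of 3.56 (SE 3.77, interval -5.20 to 12.3) and miR-133a-3p one of 3.73 (SE 3.71, interval -4.89 to 12.3), with the same adjusted p. miR-133b and miR-133a-5p had log2 fold changes of 2.90 (SE 2.52) and 1.75 (SE 2.01). All 5 were above 0, as were 59.6% of the entries tested, and their median was 3.56, against 0.34 for all entries. All but miR-1 were tested through 2 milk exosome libraries and 1 milk library, which favoured a positive sign beforehand. The signs and this median are therefore description only. The 2 groups overlapped for all 5 members, and they were apart for 1.42% of the entries tested.

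The same comparison within a depth class did not pass either. The libraries through which all but miR-1 met the filter are all shallow, so a positive sign was again favoured among these. Of the shallow libraries only milk 3 was low in the members. There miR-1 stood on 5 estimated reads and miR-133a-3p on 0.5, and the others were listed at 0. Among the 4 shallow libraries the log2 fold change was 4.28 for miR-1 (SE 2.62), 6.07 for miR-206 (SE 3.37), 5.20 for miR-133a-3p, 4.32 for miR-133b (SE 2.43) and 2.63 for miR-133a-5p (SE 2.17), each with a limma adjusted p of 0.974. Between the deep libraries, 1 per group and so without a test, miR-1 had a value of 4.68 in milk exosome 3, against 0.304 in milk 1. These are shares of 0.000623% (0.000463% to 0.000822%) and 4.38e-05% (1.19e-05% to 0.000112%). miR-133a-3p was at 0.984 and 0.152 in the same libraries, on 10.5 and 2 estimated reads. miR-206 and miR-133b were at 0.187 and 0.0468 in milk exosome 3 and at 0 in milk 1, and miR-133a-5p was at 0 in both. Single libraries moved the log2 fold changes over all 6 libraries widely. Without milk exosome 2 those of miR-133a-3p and miR-206 were 1.22 and 1.76, and without milk exosome 3 they were 7.40 and 7.54. That of miR-1 ran from 0.64 without milk 1 to 7.20 without milk exosome 3.

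**Figure D3:**
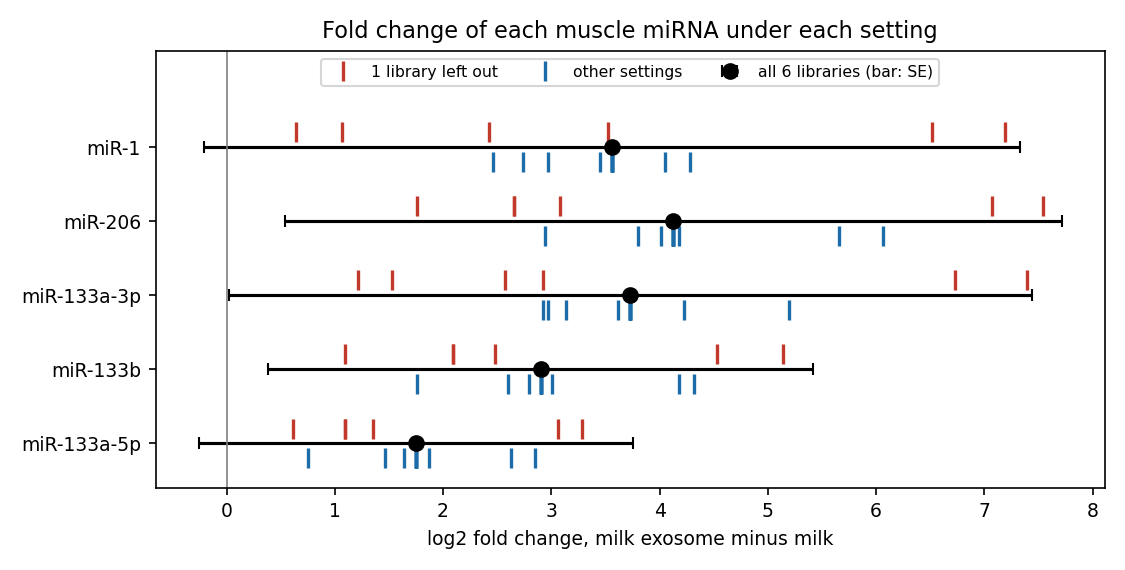
Log2 fold change (milk exosome minus milk) of each muscle entry, with the value over all 6 libraries as a black point with its SE, values with 1 library left out as red ticks and values under other settings as blue ticks. All ticks lie above 0, and those with 1 library left out run from 0.62 for miR-133a-5p to 7.54 for miR-206.

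Of the entries that are not members, miR-10b had the highest correlation with miR-1 over the 6 libraries. miR-10b, transcribed from the HOXD cluster and common in stromal and endothelial cells, had values of 802, 4993 and 8.20 in milk exosome 1, 2 and 3, against 3.95, 918 and 104 in milk 1, 2 and 3. Its log2(value + 1) had a Pearson correlation of 0.994 with that of miR-1 over the 6 libraries (Spearman 1). Without milk 1 and milk exosome 3, the 2 libraries farthest from the median of miR-1, it was 0.980. miR-145-5p, a miRNA of smooth muscle, followed with 0.978 (Spearman 1), and without the same libraries its value of 0.985 was above that of miR-10b. Then came miR-149 (0.960, and 0.917 without them), miR-378 (0.941 and 0.809) and miR-365-3p (0.921 and 0.764), against a median of -0.16 over all tested entries. For miR-133a-3p the nearest were miR-10b (0.973), miR-99b (0.957), miR-497 (0.948), miR-145-5p (0.936) and let-7e (0.931), against a median of -0.11. In milk exosome 1, milk exosome 2, milk 2 and milk 3, miR-497 stood on 2, 1, 1 and 0 estimated reads. In the same libraries let-7e stood on 4, 6, 1 and 0, and miR-149 on 3, 4, 2 and 1. Correlations that rest on so few reads say little. These correlations describe 6 libraries that fall into deep and shallow ones, and low values in both deep libraries are common to all these miRNAs.

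Of the markers of other cells, the stromal and endothelial list followed the order of miR-1 in its summed value, in part narrowly. Its summed value was 1153, 6421 and 103 in milk exosome 1, 2 and 3, against 64.4, 2242 and 1127 in milk 1, 2 and 3. This is the order of the libraries by miR-1. Milk exosome 1 and milk 3 were nearly level in the list, at 1153 and 1127, while miR-1 was at 4242 and 69.2 there. miR-10b, named above for its correlation with miR-1, is on this list. It gave most of the sum in milk exosome 1 (802) and milk exosome 2 (4993). Elsewhere it gave the smaller part, 8.20 in milk exosome 3 and 3.95, 918 and 104 in milk 1, 2 and 3. Of the other names, miR-145-5p kept the order of miR-1, on 3 to 11 estimated reads in the shallow libraries. miR-214 did not, at 27.0 in milk exosome 1 and 41.5 in milk 3, which is 3 estimated reads in each. The remaining names were not examined singly. Of its 10 names 9 were found, as 8 distinct sequences, all above 0 in every library. It held 0.0137% to 8.36% of the milk exosome libraries and 0.00930% to 4.29% of the milk libraries. By share the order differed in milk 3, where the list held 4.29%, its second highest share, and the muscle members 0.289%. The epithelial list, with 5 of 9 names found, held 0.00276% to 0.408% of milk exosome libraries and 0.00110% to 1.26% of milk libraries. It held 0.0256% of milk exosome 2, where miR-182, miR-183, miR-96-5p and miR-429 were listed at 0. That share is 1 estimated read, and 3 reads would be 0.0767%, so this share and these zeros lie at the floor. The leukocyte list, with 5 of 6 names found and all 5 above 0 in every library, held 0.230% to 1.93% of milk exosome libraries and 0.9997% to 3.36% of milk libraries, and was lowest in milk exosome 2. In the erythroid list, with all 5 names found, the value of miR-144 was 0 in both milk exosome 1 and 2, and that of miR-363 in milk exosome 2. The part of these cells in the muscle result was not tested.

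**Figure D4:**
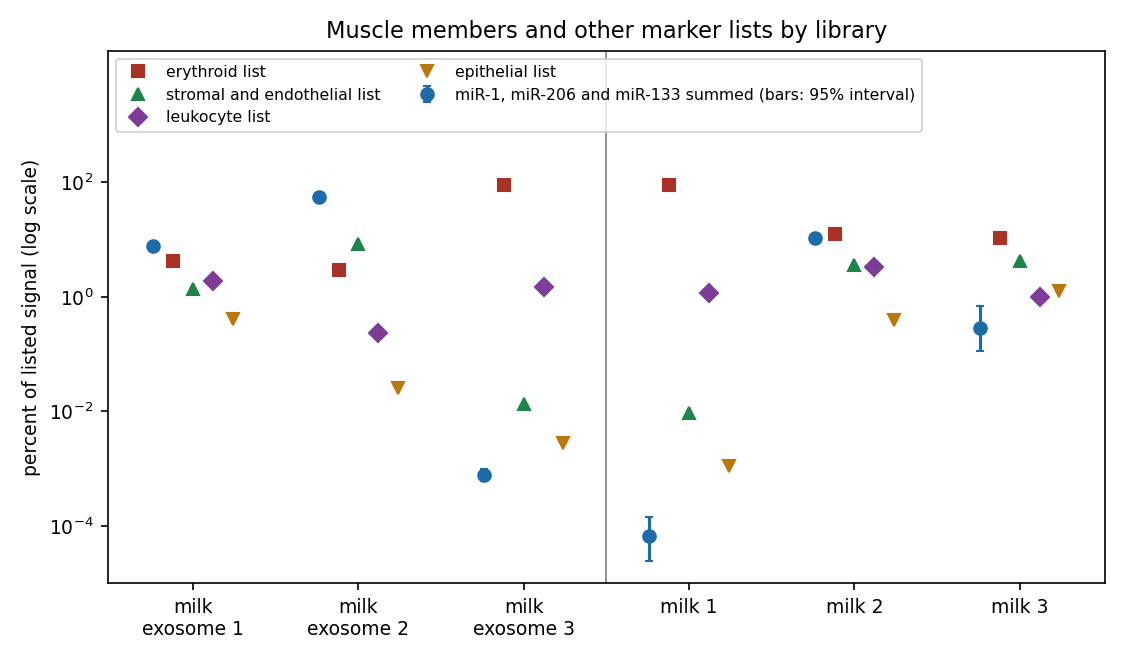
Percent of the listed signal (log scale) held by the 5 muscle entries together, with 95% intervals, and by 4 marker lists in each library. The muscle entries lead milk exosome 2 with 55.1%, and the erythroid list leads milk exosome 3 and milk 1 with 89.9% and 90.5%.

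A wider list of miRNAs linked to muscle differentiation, mostly from work in mouse, was counted in the same fit. Of its 18 names 13 were found, as 14 entries, and 12 entries were tested. Of these, 0 passed, 9 had a positive log2 fold change and 3 a negative one, with a median of 0.56 against 0.34 for all entries. Among the shallow libraries the medians were 0.63 and 0.39, and 0 passed. The most abundant was miR-486, which is also an erythroid miRNA, whose log2 fold change was 1.27 (SE 1.57). For comparison, miR-26a, miR-29a and miR-24-3p followed with 0.77, 0.46 and 0.45. Their values spanned a narrower range than those of the members: miR-26a ran from 594 to 1789 in milk exosome libraries and from 401 to 1393 in milk libraries.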

How the data were processed

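Small RNA of 3 milk exosome and 3 milk samples was sequenced as single-end reads of 36 bp after Trizol extraction and TruSeq Small RNA preparation, per the labels' protocols. The authors deposited a normalized signal for each miRNA, with 1 column per sample. The aligner, the annotation and the normalization method were not given in the sources used here. Another sheet holds 6 value columns whose names match no sample label, and these were not used.

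The labelled sheet had 279 lines, of which 34 exact repeats were dropped. The 245 entries left held 238 distinct sequences. In each library 1 read was set to the commonest value over 0, which was 0.0759 to 19.7. Within 0.01 reads, 70.4% to 88.0% of values were whole multiples, so whole reads were not recovered and a count test was not run. Read estimates were rounded for intervals, and 0 reads allow up to 3. Libraries above 131691 estimated reads, the geometric middle of the range, are called deep.

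Entries at 10 or more in at least 3 libraries (141) were fitted by limma (version 3.58.1, R 4.3.3) with eBayes trend and Benjamini-Hochberg adjustment at 0.05. The added 1 shrinks changes of low values in the deep libraries. The fit was also run on simulated data, whose outcome is not given here. The residual SD of the members ran from 2.53 (miR-133a-5p) to 6.16 (miR-1) in log2 units. With 3 libraries per group, the absence of calls therefore does not show that the groups are alike. Ratios were compared by an exact permutation test in scipy 1.17.1 (Python 3.11.15). Named are the 5 members, the 5 entries most correlated with miR-1 and with miR-133a-3p, and examples of the lists. Members, lists and tests were chosen with earlier results of these data known.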

Additional observations from a re-analysis of the deposited data

How the results depend on the processing

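Under 19 alternatives (3 rescalings, 2 filters, 2 pseudocounts, no trend, a replicate block, each library left out, only the shallow libraries, a term for depth class, a single entry for each sequence and names collapsed) the number of entries passing in limma was 0 each time. The log2 fold changes of all members stayed positive and did not pass. For all but miR-1 the libraries that met the filter favoured this sign, so its stability is no support for a difference. With 100 or more required, miR-133b and miR-133a-5p were not tested. With 1 library left out in turn, the log2 fold change ran from 0.64 to 7.20 for miR-1, from 1.76 to 7.54 for miR-206, from 1.22 to 7.40 for miR-133a-3p, from 1.09 to 5.14 for miR-133b and from 0.62 to 3.28 for miR-133a-5p. Rescaling to a common total gave a median of -0.29 for all entries, against 0.34 as deposited, and 2.92 for the members. The difference in the log2 ratio of miR-1 to miR-133a-3p was 0.43 without milk 3, against -0.25 with all libraries, ran from -0.73 to 0.43 with 1 library left out and was -1.01 in the shallow libraries (exact permutation p = 0.333); the value of miR-133a-3p in milk 3 is 0.5 reads. With the replicate block, the number of entries passing stayed 0, miR-1 stayed at 3.56 and the ratio difference was -0.25 (exact sign-flip test, p = 0.75). Deviations from the group means correlated at -0.25, 0.39 and -0.48 for numbers 1, 2 and 3. This cannot show whether the titles' numbers pair the samples. The deep libraries milk exosome 3 and milk 1 carry different numbers and correlated at 0.85, so depth class weighs on these values. With the erythroid list out of the denominator, which can only raise a share, 6 of 30 member shares left their interval. Depth limits the shallow libraries, where 3 reads are 0.0322% to 0.158% of the listed signal.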
